A study of Mus musculus with 2 samples.

Results

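The elastic fibre and microfibril genes examined here are Eln, Fbn1, Fbn2, Fbln5, Lox, Loxl1, Emilin1, Mfap4 and Mfap5. They were taken by symbol from the gene lists of both count matrices, and all 9 were found among 31253 listed genes. Eln had been picked because it differed between the libraries in mural cells, so its mural values are a description. The cells came from tooth germs of the first mandibular molar of newborn C57BL/6 mice. The control library is from Edarfl/fl mice, in which the gene of the ectodysplasin receptor, a regulator of epithelial appendages, is floxed and no Cre is present. The other library is from K14cre;Edarfl/fl mice, in which the same floxed allele meets a Cre driven by the keratin 14 promoter, which is active in epithelium. These are called the control and the deletion library. How many germs each library pooled is not stated. Each genotype was 1 library, so no comparison has a replicate and no p-value is given.

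Elastic fibres let tissues such as the artery wall recoil after stretch. Secreted elastin is deposited on a scaffold of microfibrils built from fibrillins, fibulin-5 helps to place it there, and lysyl oxidases crosslink the chains. Smooth muscle cells are known as the main source in arteries, and the periodontal ligament, which forms from the dental follicle, is known for oxytalan fibres, which are microfibril bundles with little elastin.

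Eln, whose values turn most on which cells are counted, lies on chromosome 5 at 134702593 to 134747323, minus strand (GRCm38, GENCODE M21). Its product is a chain of hydrophobic repeats and crosslinking stretches. The repeats can be read in the gene, so the coding exon richest in 1 such repeat is shown, the 27th of 37 in the transcript Eln-201 (chr5:134711062-134711220, 159 bases, minus strand, written 5′ to 3′). Capitals mark the 5 matches to GTNCCNGGN, searched on the coding strand in the reading frame.
Eln coding exon: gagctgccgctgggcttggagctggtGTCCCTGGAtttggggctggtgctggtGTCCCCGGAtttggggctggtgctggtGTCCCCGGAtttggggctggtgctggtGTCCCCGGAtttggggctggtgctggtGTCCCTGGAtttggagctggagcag
The 2580 coding bases of Eln held 23 matches. Fbn2 held 3, Fbln5 held 1 and the other 6 members held 0. At least 1 match was found in 12.7% of the longest coding sequences of 21782 genes. Fbn1 lies on chromosome 2, Fbln5 on 12, Loxl1 on 9, Emilin1 on 5, Mfap4 on 11 and Mfap5 on 6. Genes on the opposite strand overlap Eln (Gm30003), Fbn1 (Gm9913), Fbn2 (Gm26507), Lox (AC161119.1) and Mfap4 (Mapk7), and no header or label states the strand setting of the counting, so reads of such pairs cannot be told apart.

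The control library held 13990 barcodes with 73375441 UMIs (unique molecular identifiers, 1 per captured RNA molecule), and the deletion library 16029 barcodes with 62158879 UMIs. After filtering, 13255 and 15244 cells were kept, with a median of 4444 and 3329 UMIs per cell, and 4 barcodes occurred in both. Xist, a transcript of female cells, and Y-linked UMIs occurred in both libraries, so each held cells of both sexes. Edar itself was at 34.5 CPM in control and 21.1 CPM in deletion epithelium-like cells (360 and 145 UMIs). CPM is the UMIs of a gene summed over cells, divided by all UMIs of those cells and scaled to the usual common total. The labels do not name the floxed Edar exons, so this level checks the labels only if the counted part lies in the deleted part.

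The cells were sorted by marker genes into mural-like cells (365 control and 353 deletion cells), endothelium-like cells (1229 and 983), dental follicle-like cells (2045 and 3435) and dental papilla-like cells (3564 and 4918). A further mesenchymal group of 409 and 537 cells was perivascular or fibroblast-like and is called fibroblast-like here. All 11 mural, 8 endothelial and 8 fibroblast markers were higher in their cells than in the cells they were set against, as were 8 of 9 follicle markers. The names were given by these same markers, so such values describe the names and do not test them. Of the 9 papilla markers 7 were higher and 4 were seen in at least 10% of the cells, so that name rests on few genes. The mural-like cells split into smooth muscle-like cells (24 and 29) and pericyte-like cells (341 and 324). All 7 smooth muscle markers were higher in the former and 6 of 7 pericyte markers in the latter. The split was not clean, since 33 of 42 control and 29 of 45 deletion cells with a Myh11 UMI were pericyte-like. Acta2 was seen in 55.7% and 51.5% of the pericyte-like cells. Of the smooth muscle-like cells 9 and 16 held Myh11, so both names are relative. Among the endothelium-like cells, 127 and 116 formed a cluster led by Gja4, Sema3g, Depp1, Cldn5 and Sox17. Gja4 and Sox17 are known from arterial endothelium.

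Fibroblast-like cells had the highest Eln level of the named cell types in both libraries, at 7071 CPM in control and 4184 CPM in deletion cells. The Gja4-led endothelial cells followed in control, at 1639 CPM, and the smooth muscle-like cells in deletion, at 2807 CPM. Follicle-like cells had 169 and 233 CPM, pericyte-like cells 36.7 and 54.0 CPM, and papilla-like cells 21.5 and 25.6 CPM. Macrophage-like cells, which are not known to make elastin, gave 15 of 5003829 UMIs in control and 39 of 3299991 UMIs in deletion. Their level was thus higher in deletion. Odontoblast-like cells had 5.17 and 3.99 CPM. At such levels free RNA cannot be told from expression, and its part in the differences between the libraries was not tested. Fbn1, Mfap5, Loxl1 and Lox were likewise at their highest in fibroblast-like cells in both libraries. Fbn2 was spread over more of the mesenchyme, with 2121 and 2108 CPM in fibroblast-like and 1688 and 1827 CPM in papilla-like cells. Lox was the only member above 500 CPM in odontoblast-like cells, at 545 and 544 CPM.

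**Figure D1:**
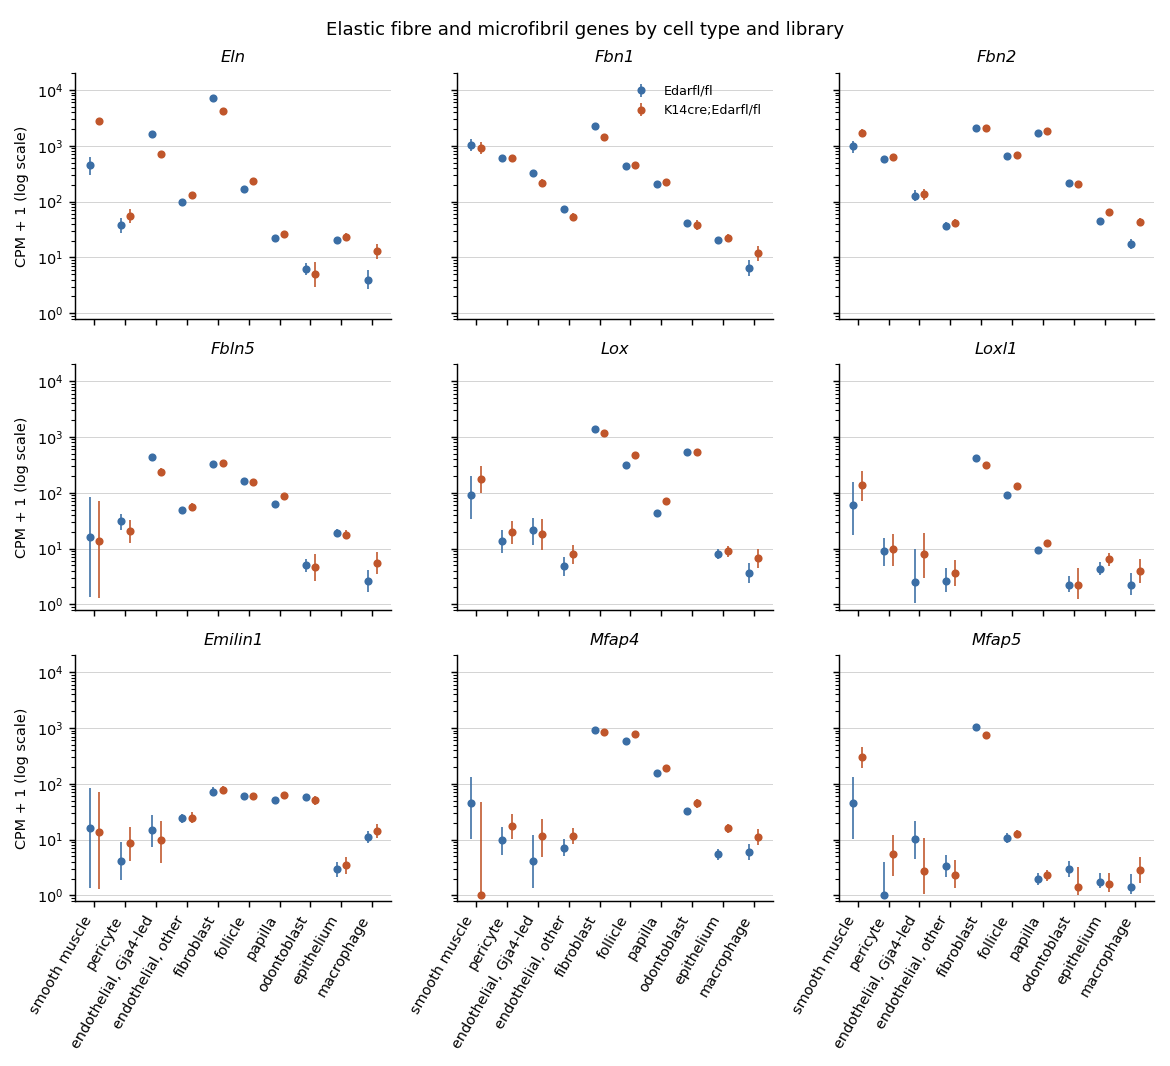
Level of each member in 10 cell groups (x axis) as CPM + 1 on a log scale (y axis), control in blue and deletion in orange; bars are exact 95% Poisson intervals, which cover counting error only. Eln, Fbn1, Lox, Loxl1 and Mfap5 are highest in fibroblast-like cells, and the widest gap between the libraries for Eln is in smooth muscle-like cells, at 449 and 2807 CPM.

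A gene was counted as different between the libraries when it reached 50 CPM in 1 of them, differed at least 2-fold in CPM + 5, and had a 95% conditional binomial interval of the count ratio that excluded 1. This rule of size covers counting error, not the spread between cells or between animals. Its intervals treat each UMI as independent, so they are too narrow where few cells hold most UMIs of a gene. In mural-like cells 3 of the 9 members reached 50 CPM and 1, Eln, was higher in the deletion library. Of 3575 genes tested there, 0.559% were higher and 0.0559% lower, and since Eln was chosen on this contrast nothing is read from its count. In follicle-like cells 8 members reached the minimum and 0 were counted (all genes 0.373% higher, 0.144% lower). In papilla-like cells the numbers were 6 and 0 (0.31% higher, 0.0% lower). In endothelium-like cells they were 4 and 0 (0.211% higher, 0.0604% lower). All 9 members reached the minimum in fibroblast-like cells and 0 were counted (0.38% higher, 0.497% lower). The counts of 0 in follicle-like, papilla-like, endothelium-like and fibroblast-like cells are near the share over all genes. Elsewhere, the 1 member tested in neutrophil-like cells was higher (log2 1.96, 137 control and 135 deletion cells). The all-gene share is not given for those cells, so nothing is read from this call. In glia-like cells 1 of 4 tested members was lower (all genes 5.43% higher, 6.36% lower). The Gja4-led endothelial cluster also had 1 of 4 lower (0.631% higher, 1.46% lower). The median log2 ratio of the tested members was 0.26 in mural-like, 0.26 in follicle-like, 0.29 in papilla-like, -0.33 in endothelium-like and -0.20 in fibroblast-like cells. Over all genes tested it lay between -0.06 and 0.03 in these cells. The papilla-like median does not describe both sexes: the 6 tested members had log2 ratios of -0.54 to -0.03 in Xist-only cells and of 0.30 to 1.21 in Y-only cells.

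**Figure D2:**
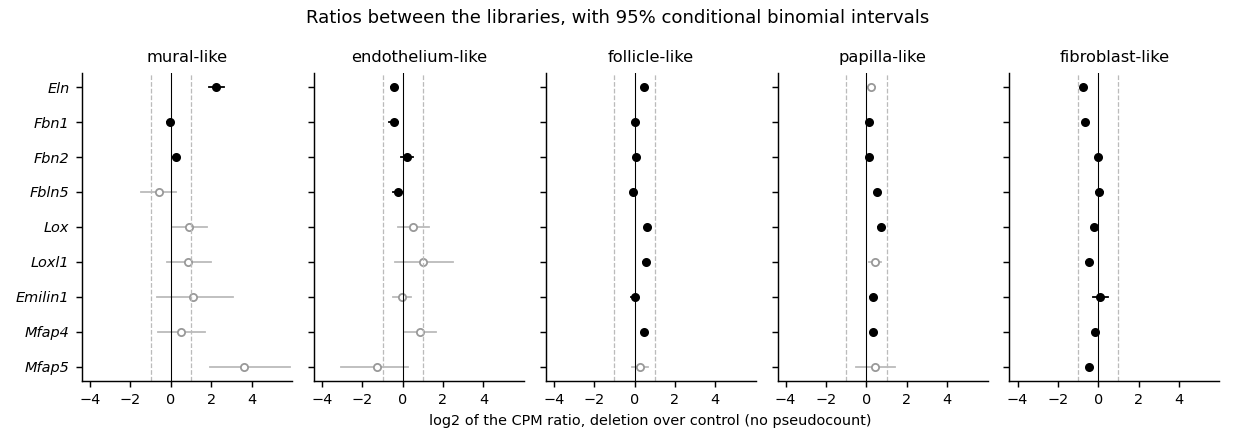
Ratio of deletion to control CPM of each member (rows) in 5 cell groups (panels), as log2 with no pseudocount; lines are 95% conditional binomial intervals, and open grey points mark members under 50 CPM in both libraries. The dashed lines mark 2-fold; among filled points only Eln in mural-like cells lies outside them.

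Eln in mural-like cells came to 76 UMIs in the control and 271 UMIs in the deletion library. That is 57.5 CPM (interval 45.3 to 72.0) and 275 CPM (243 to 310). The log2 ratio was 2.16 and the interval of the count ratio 3.69 to 6.25. The share of mural-like cells with an Eln UMI was nearly the same, 12.3% (45 of 365, exact binomial interval 9.14 to 16.1) in control and 13.3% (47 of 353, 9.95 to 17.3) in deletion cells. With every cell thinned to 1900 UMIs the shares were 9.19% and 10.5%, and 82 and 96 shallower cells were not used. In macrophage-like cells 1.60% and 2.62% of cells had an Eln UMI, at medians of 8738 and 5891 UMIs per cell against 2946 and 2464 in mural-like cells. Thinned, these were 0.945% and 1.21%.

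The Eln UMIs of the deletion library were concentrated in 12 cells. Their counts were 53, 28, 26, 17, 17, 17, 15, 13, 11, 10, 8 and 6 UMIs, and the highest control cell had 5. Together the 12 held 221 of the 271 Eln UMIs, or 81.5%, and all 12 also held UMIs of Acta2 and of Myh11, the contractile genes of smooth muscle. In the clustering, 11 of the 12 were smooth muscle-like. The twelfth, with 15 Eln UMIs, was pericyte-like and had the most UMIs of the group, 15053 in all.

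**Figure D3:**
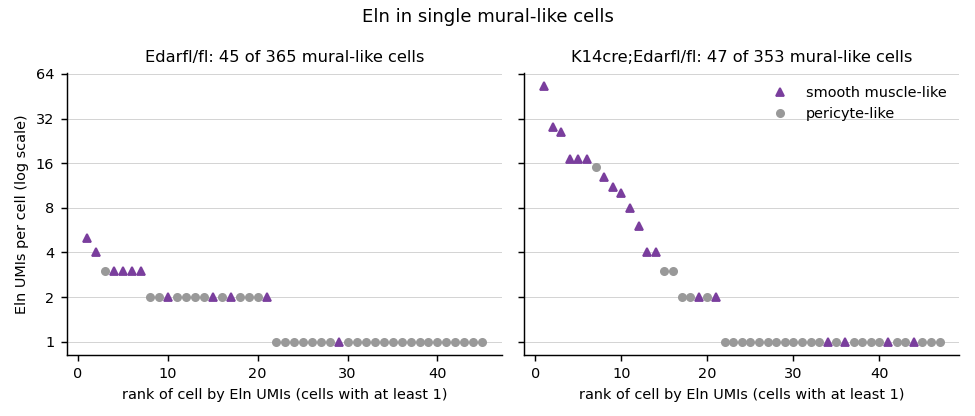
Eln UMIs (y axis, log scale) of each mural-like cell with at least 1, ranked from high to low (x axis), in the control (left) and the deletion library (right); triangles are smooth muscle-like and circles pericyte-like cells. The highest control cell has 5 Eln UMIs, and 12 deletion cells have 6 to 53.

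Smooth muscle-like cells made up 6.58% of control and 8.22% of deletion mural-like cells, but held 39.5% and 81.9% of their Eln UMIs. Eln was at 449 CPM in them in control (30 UMIs, interval 303 to 641) and at 2807 CPM in deletion cells (222 UMIs, 2450 to 3201), and 45.8% and 65.5% of the cells had an Eln UMI. In pericyte-like cells the levels were 36.7 and 54.0 CPM (46 and 49 UMIs), and the interval of the ratio, 0.966 to 2.25, included 1. Mfap5 and Eln were among the genes that led the smooth muscle-like cluster, so these levels also reflect how the cells were split. When the cells were clustered without the members and the pathway list, 19 control and 22 deletion cells were smooth muscle-like. Eln was then at 497 and 2255 CPM in these (28 and 137 UMIs) and at 37.9 and 145 CPM in the pericyte-like cells (48 and 134 UMIs). The pericyte-like levels and the share of 81.9% in deletion smooth muscle-like cells thus depend on that split.

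A split of the mural-like cells by Myh11, the smooth muscle myosin, does not use Eln. It was chosen after the values were seen. Among cells with a Myh11 UMI, 42 in control and 45 in deletion, Eln was at 110 CPM (18 UMIs) and 1458 CPM (232 UMIs), with a count ratio interval of 8.21 to 22.8. Among the 323 and 308 cells without one it was at 50.1 CPM (58 UMIs) and 47.2 CPM (39 UMIs), with an interval of 0.611 to 1.44. Of the Myh11-positive cells 7 (16.7%) in control and 19 (42.2%) in deletion had an Eln UMI. All 12 cells above hold Myh11, so the side on which the Eln difference falls was known before this split, and nothing is read from it.

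Other genes also differed between the libraries in the smooth muscle-like cells, where 2.65% of 4565 genes were higher and 3.4% lower. Of the 6 members tested there 2 were higher, Eln and Mfap5. Of the 12 contractile genes, 4 were higher by the rule of size: Myh11 at 359 and 948 CPM, Myl9, a myosin light chain, at 614 and 1340 CPM, Actg2, the enteric smooth muscle actin, at 105 and 544 CPM, and Myocd, the coactivator of smooth muscle genes, at 44.9 and 253 CPM. Of the 8 pericyte genes, 5 were lower. Rgs5, a pericyte marker that restrains G protein signalling, was at 6213 and 2301 CPM, and Abcc9, a subunit of a potassium channel, at 1647 and 645 CPM. Kcnj8, Cspg4 and Ndufa4l2 were the others. The 7 smooth muscle markers summed to 4611 CPM in control and 8647 CPM in deletion cells, all 7 detected in both. The 7 pericyte markers summed to 8728 and 3350 CPM. These markers were used to name the smooth muscle-like and pericyte-like cells, so their levels also reflect how the cells were split. In the mural-like cells as a whole, 0 of 7 tested contractile genes and 0 of 7 tested pericyte genes passed the rule. Acta2 was at 1380 and 1315 CPM, Mylk, the myosin light chain kinase, at 858 and 1056 CPM and Tpm2, a tropomyosin, at 614 and 646 CPM. Rgs5 was at 12897 and 13211 CPM, Notch3, a receptor of mural cells, at 1431 and 1348 CPM and Abcc9 at 1153 and 1065 CPM.

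Fibroblast markers also differed in the smooth muscle-like cells. They summed to 823 CPM in control, with Pi16, Clec3b, Ly6a and Cd34 at 0, and to 1466 CPM in deletion cells, with Pi16 at 0. Their part in the Eln level was not tested. Red cells were lysed before capture, and erythroid markers summed to 15.9 CPM in control and 1197 CPM in deletion mural-like cells (4 and 5 of 5 detected), but all 5 were at 0 in the smooth muscle-like cells of both libraries.

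The 2 libraries also differed in the sex of these cells. Cells with Xist and no Y-linked UMI are called Xist-only, and the reverse Y-only. Of the smooth muscle-like cells, 1 control and 15 deletion cells were Xist-only, and 11 control and 1 deletion cell were Y-only. Of the 12 cells with the most Eln, 7 were Xist-only, 0 were Y-only and 5 had neither. Among all Xist-only mural-like cells (58 and 121) Eln was at 34.6 and 403 CPM (9 and 151 UMIs). Among Y-only cells (96 and 48) it was at 82.2 and 86.3 CPM (30 and 12 UMIs), with a ratio interval of 0.490 to 2.11. Pericyte-like cells taken alone had 23.4 and 72.6 CPM in the Xist-only (6 and 24 UMIs) and 39.4 and 88.5 CPM in the Y-only cells (13 and 12 UMIs). Of the 24 UMIs 1 cell held 15. In smooth muscle-like cells sex and genotype cannot be told apart.

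**Figure D4:**
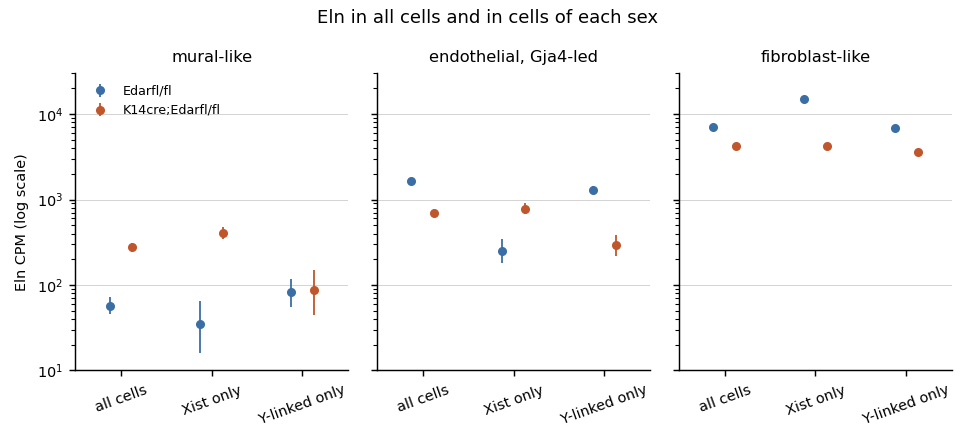
Eln CPM (y axis, log scale) in all cells, Xist-only cells and Y-only cells of 3 cell groups (panels), control in blue and deletion in orange, with exact 95% Poisson intervals. In mural-like cells the Y-only levels overlap, at 82.2 and 86.3 CPM; in the Gja4-led endothelial cells the order of the libraries is opposite in the 2 sexes; in fibroblast-like cells the control is higher in all 3 sets.

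In endothelium-like cells Eln was at 301 CPM (1461 UMIs) in control and 223 CPM (803 UMIs) in deletion cells, a log2 ratio of -0.43. The Gja4-led cluster gave 1056 and 401 of these UMIs, or 1639 CPM (interval 1542 to 1741) and 702 CPM (635 to 775). There Eln was lower in the deletion library, with a log2 ratio of -1.22 and a count ratio interval of 0.381 to 0.481. In this cluster 0.631% of 3487 genes were higher and 1.46% lower. The UMIs were again in few cells: the top 13 of 127 control cells held 83.0% and the top 12 of 116 deletion cells 76.8%, with maxima of 158 and 69 UMIs in a cell. Among Xist-only cells of the cluster (28 and 46) Eln was at 252 and 782 CPM, and among Y-only cells (47 and 29) at 1307 and 295 CPM. These levels ran in opposite directions, but they rest on few cells. In the Y-only control cells 5 of 47 held 90.5% of the Eln UMIs, and in the Xist-only deletion cells 5 of 46 held 90.4%. The share of cells with an Eln UMI was lower in deletion in both sexes, 46.4% and 30.4% of Xist-only and 48.9% and 34.5% of Y-only cells. In the whole cluster the difference in level missed 2-fold when the cells were clustered without the members and pathway list (log2 -0.91, 91 and 56 cells). In the other endothelial cells Eln was at 96.2 and 133 CPM.

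Fibroblast-like cells held more Eln per cell than any group above. The median cell had 12 Eln UMIs in control (quartiles 4 and 32) and 5 in deletion (2 and 15), and 96.6% and 85.5% of the cells had at least 1. Thinned to 1900 UMIs, the shares were 91.7% and 78.4%. The levels of 7071 CPM (12020 UMIs) and 4184 CPM (7087 UMIs) gave a log2 ratio of -0.76 and an interval of 0.575 to 0.609, short of 2-fold. Control was higher among Xist-only cells (15168 and 4187 CPM, 25 and 290 cells) and among Y-only cells (6781 and 3593 CPM, 153 and 78 cells). Mfap5 and Eln also led this cluster, but clustering without the members gave 6918 and 4070 CPM in 419 and 559 cells. The 5 erythroid markers, all detected, summed to 835 CPM in control and 35.4 CPM in deletion fibroblast-like cells, and their part in the result was not tested.

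The fibrillins form the microfibril itself. Fbn1 was at 631 CPM in control and 621 CPM in deletion mural-like cells (834 and 612 UMIs), with a ratio interval of 0.885 to 1.09. Fbn2, a fibrillin known from developing tissues, was at 597 and 718 CPM (789 and 708 UMIs), with a log2 ratio of 0.26 and an interval of 1.09 to 1.33. Among Myh11-positive cells Fbn2 was at 567 and 1162 CPM (93 and 185 UMIs, interval 1.59 to 2.66) and Fbn1 at 750 and 723 CPM. Mural-like cells without Myh11 had 601 and 633 CPM of Fbn2. This split was made after the Fbn2 values were seen as well. In fibroblast-like cells Fbn1 was at 2301 and 1454 CPM (log2 -0.66), whereas Fbn2 was at 2121 and 2108 CPM (log2 -0.01). Fbn1 in Y-only fibroblast-like cells was at 2628 and 1034 CPM, and in Xist-only cells at 2329 and 1727 CPM. For Fbn2 the sexes ran in opposite directions there, at 2033 and 1751 CPM in Y-only and at 1869 and 2162 CPM in Xist-only cells. In follicle-like cells both fibrillins differed by less than 0.1 on the log2 scale, Fbn1 at 434 and 448 CPM and Fbn2 at 661 and 688 CPM. With the 4 follicle-like sub-clusters weighted equally the log2 ratio was 0.07 for Fbn1 and 0.17 for Fbn2. By sex, the follicle-like Fbn2 ratio was 0.14 in Xist-only and -0.06 in Y-only cells. In endothelium-like cells Fbn1 was at 106 and 78.0 CPM and Fbn2 at 48.0 and 55.5 CPM. In papilla-like cells Fbn1 was at 203 and 222 CPM, but at 219 and 155 CPM in Xist-only cells and at 185 and 256 CPM in Y-only cells. With the 6 papilla-like sub-clusters weighted equally Fbn1 was at 289 and 254 CPM (log2 -0.18) and Fbn2 at a log2 ratio of 0.03.

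Mfap5, a microfibril-associated glycoprotein, was mainly found in fibroblast-like cells, with 1038 and 763 CPM there against 9.67 and 11.7 CPM in follicle-like and 0.955 and 1.29 CPM in papilla-like cells. In Xist-only fibroblast-like cells (25 and 290) Mfap5 was at 1549 and 942 CPM. In Y-only ones (153 and 78) Mfap5 was at 1186 and 461 CPM, with a ratio interval of 0.317 to 0.474. In mural-like cells it was under the 50 CPM minimum, with 3 UMIs in control and 28 UMIs in deletion cells (2.27 and 28.4 CPM, count ratio interval 3.87 to 64.3). The 28 UMIs came from 11 cells, and 24 of them from smooth muscle-like cells. Of the 12 cells rich in Eln, 4 held Mfap5, with 12 UMIs in all. Within smooth muscle-like cells Mfap5 was at 44.9 and 303 CPM (3 and 24 UMIs, interval 2.05 to 35.0), in a cluster that Mfap5 itself led. Mfap4, a protein that binds elastin and microfibrils, had its highest levels in fibroblast-like cells (923 and 836 CPM) and follicle-like cells (574 and 790 CPM). In fibroblast-like cells Mfap4 was at 993 and 749 CPM in Xist-only and at 759 and 948 CPM in Y-only cells, in opposite directions. In mural-like cells Mfap4 was at 10.6 and 15.2 CPM (14 and 15 UMIs).

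Fbln5, the fibulin that brings elastin and lysyl oxidase-like 1 to microfibrils, was found in endothelial and glial as well as mesenchymal cells. Its levels were 324 and 333 CPM in fibroblast-like and 160 and 153 CPM in follicle-like cells. In the Gja4-led endothelial cells it was at 438 CPM (282 UMIs) and 238 CPM (136 UMIs), with a ratio interval of 0.440 to 0.670, and in the other endothelial cells at 48.0 and 54.4 CPM. Mural-like cells had 28.7 and 19.3 CPM. Glia-like cells, 38 and 107 in number, had 647 CPM (75 UMIs) and 265 CPM (99 UMIs), lower in deletion by the rule of size. In these few cells 5.43% of 4198 genes were higher and 6.36% lower. In papilla-like cells Fbln5 was at 60.8 and 88.0 CPM (log2 0.50). The sexes ran in opposite directions: Xist-only cells had 90.5 and 60.8 CPM and Y-only cells 44.8 and 106 CPM. Emilin1, a microfibril-surface protein that limits TGF-beta maturation, differed little in pooled level. It was at 59.6 and 59.7 CPM in follicle-like, 50.0 and 62.2 CPM in papilla-like and 71.2 and 76.8 CPM in fibroblast-like cells. With the 4 follicle-like sub-clusters weighted equally Emilin1 had a log2 ratio of 0.27. In fibroblast-like cells Emilin1 was at 53.4 and 66.5 CPM in Xist-only and at 55.8 and 94.8 CPM in Y-only cells (40 and 23 UMIs, interval 0.970 to 2.90). It had only 5 and 8 UMIs in mural-like cells.

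The crosslinking enzymes Lox and Loxl1 were low in mural-like cells, Lox with 22 and 31 UMIs (16.6 and 31.4 CPM) and Loxl1 with 14 and 19 UMIs (10.6 and 19.3 CPM). In fibroblast-like cells Lox was at 1368 and 1187 CPM and Loxl1 at 421 and 307 CPM. By sex, Lox was at 1357 and 1072 CPM there in Xist-only and at 1263 and 1343 CPM in Y-only cells. Follicle-like cells had 315 CPM of Lox in control and 475 CPM in deletion (2701 and 5666 UMIs, log2 0.59, interval 1.44 to 1.58). Loxl1 was at 88.8 and 130 CPM there (log2 0.53), Eln at 169 and 233 CPM (log2 0.46) and Mfap4 at 574 and 790 CPM (log2 0.46). In papilla-like cells Lox was at 42.1 and 69.1 CPM (log2 0.65), from 64.9 and 51.7 CPM in Xist-only cells and 33.3 and 83.5 CPM in Y-only cells, again in opposite directions.

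The sub-clusters of the follicle-like cells differed in size between the libraries, and the part of this in the differences was not tested. A sub-cluster led by Pappa2 and Cyp26b1, numbered 11, held 25.4% of control follicle-like cells (520) and 40.6% of deletion follicle-like cells (1395). It was rich in the members: Lox was at 878 and 919 CPM, Eln at 349 and 417 CPM and Loxl1 at 184 and 207 CPM. The larger sub-cluster 13, led by Moxd1 and Igfbp5, had Lox at 129 and 174 CPM and Eln at 104 and 97.8 CPM. With the 4 sub-clusters weighted equally in both libraries, the log2 ratios were 0.14 for Lox, 0.12 for Eln, 0.27 for Loxl1 and 0.34 for Mfap4. In follicle-like cells Lox was at 369 and 419 CPM among Xist-only cells and at 272 and 475 CPM among Y-only cells. Mfap4 had the higher level in deletion cells in each of the 4 sub-clusters, for example 817 and 1083 CPM in sub-cluster 11. Digestion and dead-cell removal preceded capture, so shares of cells are shares of what was recovered. In papilla-like cells, weighting the 6 sub-clusters equally took Fbln5 to a log2 ratio of 0.07 and Lox to 0.32. Sub-cluster 7, led by Grik1, held 322 control and 1255 deletion papilla-like cells and had Fbln5 at 191 and 214 CPM.

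**Figure D5:**
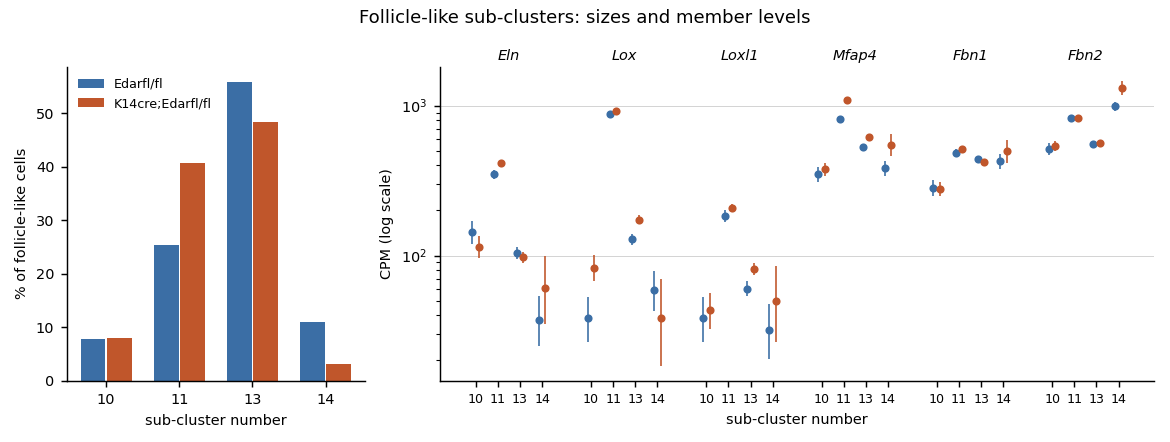
Left, share of follicle-like cells (y axis, %) in each of 4 sub-clusters (x axis). Right, CPM (log scale) of 6 members in the same sub-clusters with exact 95% Poisson intervals, control in blue and deletion in orange. Sub-cluster 11 holds 25.4% of control and 40.6% of deletion follicle-like cells and has the highest Eln, Lox and Loxl1.

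A mesenchymal remainder of 1408 control and 1696 deletion cells took no name. Of the members, 7 were tested there and 0 passed the rule of size (all genes 1.08% higher, 0.0317% lower). Mfap4 was at 188 and 355 CPM (log2 0.90) and Fbln5 at 24.2 and 51.3 CPM (log2 0.95). A sub-cluster led by Gabrg3 and Pappa, numbered 9, made up 20.7% of these cells in control and 37.8% in deletion, and within it Mfap4 was at 888 and 897 CPM and Fbln5 at 150 and 165 CPM. The part of its share in the pooled levels was not tested.

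The wider pathway was followed with a list of 38 genes: other assembly proteins, lysyl oxidases, latent TGF-beta binding proteins and ligands, integrins and elastin-degrading proteases. In mural-like cells 24 of the 38 were tested and 0 passed the rule (all genes 0.559% higher, 0.0559% lower), with a median log2 ratio of -0.02 against 0.00 over all genes tested. The 3 with the highest control level there were Itgb1, an integrin chain, at 1530 and 1712 CPM, Bgn, a small proteoglycan, at 1167 and 1098 CPM, and Fn1, fibronectin, at 1160 and 992 CPM. In follicle-like cells 25 were tested, 0 passed (all genes 0.373% higher, 0.144% lower) and 20 lay above 0, with a median of 0.14. Of all 3484 genes tested there 44.1% lay above 0, with a median of -0.03. With the 4 follicle-like sub-clusters weighted equally, some of the 20 fell below 0. The 4 tested proteases, all above 0 before, were at -0.08 (Mmp2), 0.002 (Mmp14), -0.05 (Ctsk) and -0.05 (Ctsl). The 5 tested latent TGF-beta binding proteins and ligands, also all above 0 before, were at -0.04 to 0.16. The 4 tested integrins stayed above 0, at 0.02 to 0.14. The part of the sub-cluster sizes was not tested. In papilla-like cells 20 were tested, 0 passed (0.31% higher, 0.0% lower) and the median was 0.04 against 0.03 over all genes. In endothelium-like cells 12 were tested and 1 was higher (all genes 0.211% higher, 0.0604% lower), Vcan, a large proteoglycan of the provisional matrix, at 20.4 and 56.6 CPM (99 and 204 UMIs). In fibroblast-like cells 26 were tested and 5 lay above 0, against 50.6% of all genes tested, and the median was -0.32 against 0.01. There 1 was lower (all genes 0.38% higher, 0.497% lower), Efemp1, a fibulin, at 130 and 46.6 CPM (221 and 79 UMIs). In smooth muscle-like cells 22 were tested and 1 was higher, Thsd4, a protein that binds fibrillin, with 0 and 8 UMIs, which is near the all-gene share there of 2.65% higher (3.4% lower).

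Across 11 named cell types in both libraries, 22 points in all, the 5 genes with the pattern of log2(CPM + 5) most like that of Eln were Mn1 (Pearson r 0.94), H19 (0.93), Ccn3 (0.93), Hmcn1 (0.92) and Prelp (0.92), among 7405 genes. Among the members themselves, r with Eln was 0.87 for Mfap5, 0.83 for Fbn1, 0.82 for Loxl1, 0.55 for Lox and 0.52 for Emilin1. The closest pair was Fbn1 with Fbn2, at 0.88, and the most distant Fbln5 with Emilin1, at 0.29. These are descriptions: the points share libraries, and the 2 points of a cell type are alike.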

How the data were processed

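The authors deposited, per the file headers, whole-number counts of UMIs per gene and barcode for each of 2 BD Rhapsody libraries, and STARsolo and the mm10 build are named in the submitters' processing notes. Their versions, the annotation, the barcode filter and the strand setting are not stated in headers or labels. Each barcode held at least 500 UMIs.

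Cells with at least 500 genes and at most 20% mitochondrial UMIs were kept, and Scrublet removed 176 control (1.31%) and 243 deletion (1.57%) cells as doublets. Cells of both libraries were clustered together with scanpy 1.11.5 (10000 UMIs per cell, 2000 variable genes, 30 components, 15 neighbours, Leiden resolution 1, and 0.6 within mesenchyme and mural cells). A cluster took the name whose markers scored highest, as the mean over markers of the level relative to other clusters. It needed at least 3 markers in 10% of its cells and a lead of 0.1, or at least 2 markers in its top 10 genes where the lead was smaller. It stayed unnamed where another name's markers led. This scoring was set after the data were seen.

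UMIs were summed per library and cell type. Log2 ratios use CPM + 5. Intervals of levels are exact Poisson, of shares exact Clopper-Pearson and of count ratios conditional binomial, all 95%, and cover counting error only. The rule of size was tested on simulated data with Poisson counts, the model it assumes. That simulation held no spread between cells or animals, so it says nothing of how the rule behaves under such spread. The members and gene lists were chosen with earlier results of these data known. Named genes are the 9 members, pathway genes past the rule, the 3 pathway, contractile and pericyte genes highest in mural-like cells and the 5 genes most like Eln. Positions are from GENCODE M21 (GRCm38).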

Additional observations from a re-analysis of the deposited data

Results flagged for a closer look

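The log2 ratio of deletion to control for Eln was 2.16 in mural-like cells, the contrast it was picked on, and -0.76 in fibroblast-like cells, which is short of 2-fold. The difference between them was not tested. In the Gja4-led endothelial cluster the log2 ratio was 1.61 among Xist-only cells and -2.13 among Y-only cells. In all endothelium-like cells it was 1.28 among Xist-only and -1.43 among Y-only cells. In the Gja4-led cluster 5 of 46 Xist-only deletion cells and 5 of 47 Y-only control cells held about 90.4% and 90.5% of the Eln UMIs of their sets. These differences between the sexes were not tested either, since each sex was present in 1 library per genotype.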

How the results depend on the processing

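No paired analysis was possible because each genotype has 1 library, and for the same reason no library could be left out. For Eln in mural-like cells the log2 ratio of 2.16 became 0.068 in Y-only cells and 0.50 without the smooth muscle-like cells. The Y-only set held 11 control smooth muscle-like cells and 1 deletion one. Its pericyte-like cells alone gave 1.07 (13 and 12 UMIs, interval 0.937 to 5.34). The mural-like ratio was -0.091 without the 12 cells of at least 6 Eln UMIs. That limit lies just above the highest control cell and takes cells from the deletion library alone. The ratio therefore had to fall, and the value says nothing of stability. It was 1.81 in the cells that were not smooth muscle-like when the clustering left out the members and the pathway list. For Eln in the Gja4-led cluster the ratio of -1.22 became -0.85 as a mean over cells, -0.85 with called doublets kept, -0.91 when clustered without the members and pathway list, and 1.61 in Xist-only cells. That cluster had no counterpart under the stricter cell filter or at the lower clustering resolution. For Eln in fibroblast-like cells the ratio reached -1.86 in Xist-only cells. With no minimum level, 2 members were higher in mural-like cells, Eln and Mfap5. After thinning, 0 pathway genes were higher in endothelium-like cells, so the call for Vcan was lost. Thinning turned the sign of 4 ratios near 0: Fbln5 in follicle-like cells (0.012), Emilin1 in follicle-like cells (-0.10), Mfap5 in papilla-like cells (-0.053) and Fbn2 in fibroblast-like cells (0.013). The cause was not tested in any of the others. The other 111 values that answer a comparison and 82 values of single members kept their side of the rule. The split of mural-like cells by Myh11, the split of the endothelium, the equal weights and the fibroblast-like cells were added after the data were seen. Under 50 CPM, as for 6 of the 9 members in mural-like cells, no difference was read.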
